A study of Mus musculus with 2 samples.

Results

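The miRNA genes Mir322, Mir503, Mir351, Mir542, Mir450-2, Mir450-1 and Mir450b, which form 1 cluster on the X chromosome, were described in the embryonic mouse heart. They were picked by symbol and are 7 of 1973 miRNA genes in the deposited count tables. The rule did not use their levels, but it was set with earlier results of these data known. The hearts came from mouse embryos of the strain B6NCrl, staged at 14.5 days, and small RNA from total RNA, under a size limit labelled 30 with no unit, was sequenced in 2 libraries numbered as biological replicates 1 and 2. Both form 1 group, with no genotype or treatment given. Tissue was taken on 15 July 2014 for replicate 1 and 17 July 2014 for replicate 2. Each label speaks of 1 heart, from pup 1 of pregnant female 2 on both dates, but the sex entry gives a pool of males and females, so the number of hearts behind a library is uncertain. With no second group, no difference between conditions could be tested, and the spread between the libraries may be technical.

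A miRNA is cut from a hairpin in a longer primary transcript. It pairs with target messenger RNAs mainly through its seed, the bases 2 to 8 from its 5′ end, so miRNAs with the same seed can act on overlapping sets of targets. Mir322, the mouse counterpart of human MIR424, and Mir503 are known for slowing the cell cycle in differentiating muscle cells and for expression in early heart progenitors. Hairpins of this cluster are thought to be cut from the same primary transcript, which was not measured here.

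The sequences below show how the cluster divides into seed groups. They are mature sequences from RefSeq (build GRCm38.p6), written 5′ to 3′ with the seed in capitals, and 14 mature arms were found there for the 7 genes. The 5p arms of Mir322 and Mir503 are set beside miR-15a and miR-16 of the miR-15/16 family, and that of Mir351 beside miR-125a and miR-125b:
miR-322-5p: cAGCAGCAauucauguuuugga
miR-503-5p: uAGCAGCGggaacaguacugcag
miR-15a-5p: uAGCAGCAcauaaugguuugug
miR-16-5p: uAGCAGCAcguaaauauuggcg
miR-351-5p: uCCCUGAGgagcccuuugagccug
miR-125a-5p: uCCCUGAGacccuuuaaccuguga
miR-125b-5p: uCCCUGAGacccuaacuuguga
miR-542-3p: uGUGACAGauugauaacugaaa
miR-450a-5p: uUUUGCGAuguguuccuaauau
miR-450b-5p: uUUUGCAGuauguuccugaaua

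miR-322-5p has the full seed of miR-15a and miR-16, whereas miR-503-5p matches miR-322-5p over 6 bases from base 2 and differs at the last seed base (A8G, positions counted from 1 at the 5′ end, miR-322-5p first). miR-351-5p is identical to miR-125a-5p and miR-125b-5p over its first 8 bases and differs from both at the next (G9A). No other mature sequence in the table has the seed of miR-542-3p. miR-450a-5p and miR-450b-5p share their first 6 bases and differ in the seed at 2 positions (G7A and A8G). All of these arms except miR-322-5p, which begins with C, begin with U.

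Mir450-1 and Mir450-2 are shown as whole hairpins because both hold the same mature miR-450a-5p, given here in capitals:
Mir450-2: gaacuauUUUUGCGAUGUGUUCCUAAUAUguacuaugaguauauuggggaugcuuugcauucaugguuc
Mir450-1: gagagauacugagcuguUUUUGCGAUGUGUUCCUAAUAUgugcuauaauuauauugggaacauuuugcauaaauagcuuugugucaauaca

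The longest stretch shared by these hairpins is 25 bases. Reads that map to several places are listed apart from the genes in the deposited tables (30.4% ± 0.359 of all reads, SD, n = 2), so a read of miR-450a-5p can be missing from both genes. The counts of Mir450-1 and Mir450-2 are therefore uncertain. The hairpins of the other 5 members share no stretch of 20 bases with another annotated miRNA gene. At 18 bases Mir450b joins Mir450-1, through the arms miR-450b-3p and miR-450a-1-3p, which are identical over their first 18 bases. Across 141767 annotated transcripts, an exact copy of a mature arm was found in no second gene for any member except miR-450a-5p.

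All 7 hairpins lie on the minus strand of the X chromosome within 6353 bases (53047997 to 53054349, mm10), and none overlaps another annotated gene, so by the annotation they are intergenic. In the direction of transcription Mir322 (53054255 to 53054349) comes first. Mir503 (53053984 to 53054054) follows after 200 bases and Mir351 (53053255 to 53053353) after a further 630. Mir542 (53049403 to 53049487) lies 3767 bases beyond Mir351, with the long noncoding RNA gene Gm28730 between them on the same strand. Mir450-2 (53048299 to 53048367), Mir450-1 (53048154 to 53048244) and Mir450b (53047997 to 53048078) close the cluster, 1035, 54 and 75 bases after the hairpin before each. The noncoding RNA gene C430049B03Rik ends 696 bases before Mir322 on the same strand.

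Levels are given in CPM, counts per 1000000 reads listed for miRNA genes in the strand-specific column used. There were 4327424 such reads in replicate 1 and 3839984 in replicate 2. Every member was detected, that is, had at least 10 counts in each library, against 17.1% of all 1973 genes. A mean of at least 1000 CPM was reached by 4 of the 7 members, against 3.95% of all genes. The cluster summed to 100863 CPM in replicate 1 and 99476 in replicate 2, a mean of 100170 ± 981 (SD, n = 2), and so held 10.02% ± 0.0981 of the assigned reads. The column of the other strand held 0 reads for every member in both libraries. A count of 0 there allows opposite-strand reads of up to 0.000687% of the members' reads in replicate 1 and 0.000785% in replicate 2, which covers counting error only.

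Mir322 was far the most abundant member. The gene (ENSMUSG00000065418.1) had 289710 counts in replicate 1 and 276483 in replicate 2, or 66947 and 72001 CPM, a mean of 69474 ± 3573. By these counts it had rank 3 in replicate 1 and rank 4 in replicate 2 among all miRNA genes. It gave 66.4% and 72.4% of the cluster's reads. Reads that map to several places are outside these counts, so genes with close copies can stand too low. Ranks and shares of all reads, here and for the other members, hold for assigned reads only. Most of the cluster's signal in both libraries came from 1 of its 7 hairpins.

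Mir351, which has the miR-125 seed, came second with 117635 and 77987 counts. These correspond to 27184 CPM in replicate 1 and 20309 in replicate 2, a mean of 23746 ± 4861, at rank 11 and rank 13 of all genes. Its share of the cluster was 27.0% in replicate 1 and 20.4% in replicate 2. Mir322 stood 2.46 times above Mir351 in replicate 1 and 3.55 times in replicate 2.

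Mir542 and Mir503 lay together about an order of magnitude lower. Mir542, whose miR-542-3p is known for targeting the survival factor survivin, reached 3140 CPM in replicate 1 and 3149 in replicate 2 (mean 3144 ± 6.34), 3.14% ± 0.0371 of the cluster. Mir503, the partner of Mir322 in cell cycle control, reached 2904 and 3047 CPM (mean 2975 ± 101), 2.97% ± 0.130 of the cluster. Mir542 exceeded Mir503 in both libraries, but only by 1.08 and 1.03 times. For scale, edgeR put the coefficient of variation of a gene between the libraries at 19.4% over 396 genes. edgeR calls it biological, but here it may be technical, and it is not the spread of a ratio between genes within a library. Although their hairpins are 200 bases apart, Mir322 exceeded Mir503 by 23.1 times in replicate 1 and 23.6 times in replicate 2, so this ratio differed little between the libraries.

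The Mir450 genes were lowest, together 830 ± 199 CPM. Mir450b, the last hairpin, had 2408 and 3093 counts, or 556 CPM in replicate 1 and 805 in replicate 2 (mean 681 ± 176). Mir450-1 had 408 and 394 counts, or 94.3 and 103 CPM (mean 98.4 ± 5.88), and Mir450-2 had 164 and 240 counts, or 37.9 and 62.5 CPM (mean 50.2 ± 17.4). Mir450b lay above Mir450-1, and Mir450-1 above Mir450-2, in both libraries. The last 2 are the genes with the shared arm and the uncertain counts, and the tables do not divide a gene's reads between its arms. From Mir322 to Mir450-2 the level fell 1767-fold in replicate 1 and 1152-fold in replicate 2.

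**Figure D1:**
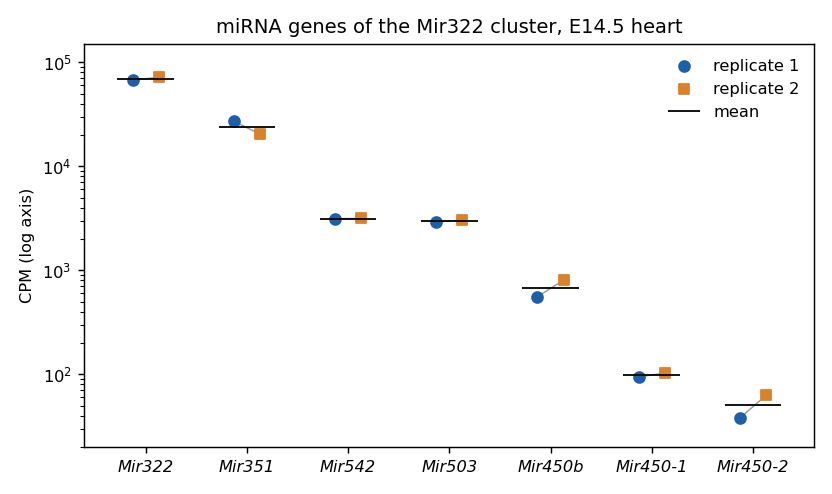
Level of each cluster member in CPM on a log axis, with a circle for replicate 1, a square for replicate 2 and a line for their mean. Mir322 lies between 66947 and 72001 CPM and Mir450-2 between 37.9 and 62.5, and the order is the same in both libraries.

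The order Mir322, Mir351, Mir542, Mir503, Mir450b, Mir450-1, Mir450-2 held in both libraries. For no pair of neighbours in it did the ranges over the libraries overlap, in CPM or with TMM or median-of-ratios scaling. The nearest were Mir542 and Mir503, where the lowest value of Mir542 and the highest of Mir503 were 3140 and 3047 CPM, and 3027 and 3021 with median-of-ratios scaling. The order of levels was not the order of the hairpins along the transcribed strand. The 3 hairpins nearest the start, all with their 5′ ends within 996 bases of that of Mir322, included both the 2 highest members and Mir503. Mir542, with its 5′ end 4862 bases from that of Mir322, was level with Mir503. Within the group of 3 Mir450 hairpins the counted level rose from the first to the last, Mir450b being 13.8 ± 1.27 times above Mir450-2. Reads of the arm shared by Mir450-1 and Mir450-2 can be missing from both, so this rise and ratio can be too large.

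**Figure D2:**
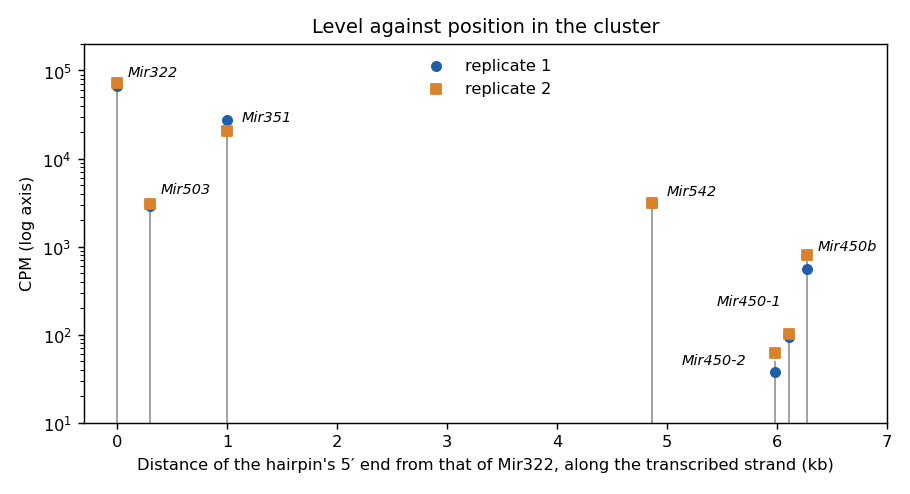
Level in CPM (log axis) of each member against the distance of its hairpin from Mir322 along the transcribed strand in kb, with circles for replicate 1, squares for replicate 2 and lines up to the mean. Mir503, 295 bases from Mir322, and Mir542, 4862 bases from it, stand at nearly the same level, and the Mir450 hairpins at the far end are the lowest. Mir450-1 and Mir450-2 can stand too low, because reads of their shared arm can be missing.

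Because miRNAs of the same seed can share targets, each member was set against the other genes of its seed group, counted per gene. As a gene's reads are not divided between its arms, reads of an arm without the seed are counted too. The shares below, for both seed groups, are therefore shares of gene reads and not of miRNAs with the seed. The miR-15/16 family is known in the heart for its part in the mitotic arrest of cardiomyocytes after birth. Outside the cluster 9 genes with its seed had an entry in the tables, of which 5 were detected. Mir15a reached 2104 ± 34.6 CPM, Mir16-1 reached 1622 ± 261, Mir15b 1591 ± 185, Mir195a 479 ± 9.43 and Mir16-2 351 ± 39.6. The other 4 were Mir195b, with 1 count in replicate 1, and Mir6342, Mir6353 and Mir6419, with 0 counts in both libraries. Mir497, which has the seed too, was not counted under its own name. It lies on the strand opposite the annotated Mir497b, whose other-strand column held 2130 reads in replicate 1 and 2006 in replicate 2, or 492 and 522 CPM.

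Mir322 alone held 91.5% of the reads on genes with the identical 7-base seed in replicate 1 and 92.2% in replicate 2. With Mir503 counted in, the cluster's pair gave 91.9% and 92.5% of the reads (mean 92.2% ± 0.451), or 91.3% and 91.9% if the reads on the strand of Mir497 are counted in, an alternative chosen after seeing the data. The pair stood at 69852 CPM in replicate 1 and 75048 in replicate 2, against 6198 and 6096 for the 9 other genes together, which is 11.3 and 12.3 times as much. The mature miR-16-5p is encoded by both Mir16-1 and Mir16-2, so its reads can be missing from the gene counts and the pair's share can be too high by an amount not measured here.

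Mir351 held a like place in the miR-125 group. miR-125 is the counterpart of lin-4, the founding miRNA of worms. Of 5 further genes with that seed, 3 were detected: Mir125a with 3513 ± 512 CPM, Mir125b-2 with 655 ± 74.3 and Mir125b-1 with 351 ± 17.9. Mir6367 and Mir6394 had 0 counts. Mir351 gave 85.0% of the group's reads in replicate 1 and 82.8% in replicate 2 (mean 83.9% ± 1.53). It stood 5.64 and 4.81 times above the other 5 genes together. miR-125b-5p is encoded by both Mir125b genes, so the same uncertainty holds for this share.

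**Figure D3:**
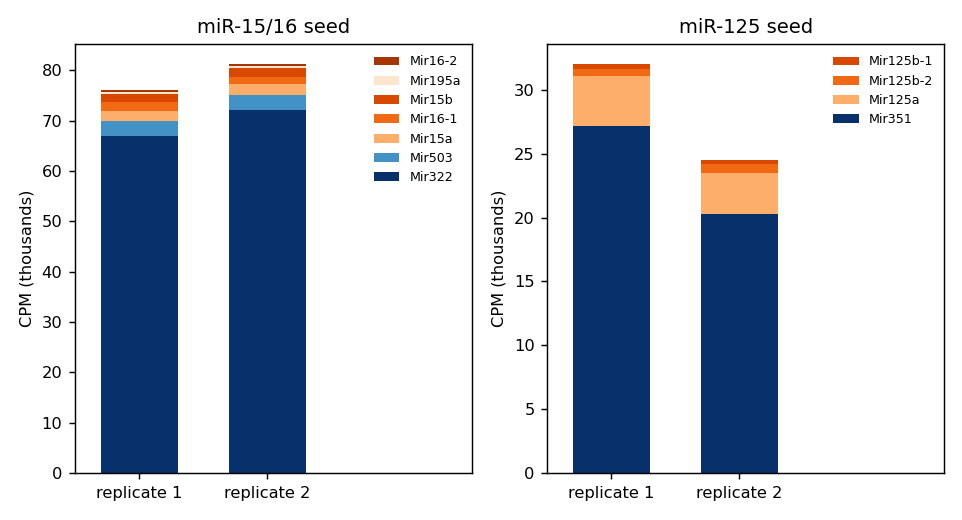
Stacked levels, in units of 1000 CPM, of the detected genes with the miR-15/16 seed (left, with Mir503 included) and the miR-125 seed (right) in each replicate, cluster members in blue and other genes in orange. Mir322 fills most of the left bars, and Mir351 gives 85.0% and 82.8% of the right ones.

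The remaining arms had few partners. The 3p arms of Mir450-1 and Mir450b share a seed with each other and with miR-6352, and miR-542-5p shares one with miR-6966-5p. The 5p seed of miR-450b, like the seeds of miR-322-3p, miR-503-3p, miR-351-3p and miR-450a-2-3p, belonged to no other gene of the table.

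The cluster also made up most of the assigned miRNA reads from the X chromosome. The tables hold 120 X-linked genes, of which 37 were detected, and these 120 together held 12.9% ± 0.155 of the assigned reads. The 7 members gave 77.8% of the X-linked reads in replicate 1 and 78.0% in replicate 2 (mean 77.9% ± 0.173), and Mir322 alone gave 51.6% and 56.5%. The other 113 genes summed to 28439 ± 564 CPM, so that the cluster stood 3.50 and 3.55 times above all of them together. Reads that map to several places are outside these counts, so an X-linked gene with close copies can stand too low. The cluster's shares of X-linked reads and these ratios can then be too high, by an amount not measured here. Of the 11 X-linked genes above 1000 CPM, 4 were members. The highest that was not a member, Mir652, reached 11425 ± 75.3 CPM and lay below Mir351 in both libraries.

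For comparison with other X-linked clusters, the 5 measured miRNAs in the Clcn5 intron summed to 6922 ± 16.3 CPM, and the cluster stood 14.5 ± 0.108 times above them. Mir532 and Mir188 led that group with 2786 ± 137 and 2257 ± 135 CPM, each below the mean of Mir542 and of Mir503. The 6 measured genes of the Mir106a to Mir363 cluster, relatives of the miR-17 to miR-92 cluster, summed to 66.6 CPM in replicate 1 and 75.0 in replicate 2, a mean of 70.8 ± 5.97. In each library that was more than Mir450-2 and less than Mir450-1. The Mir106a group has close copies on other chromosomes, so its sum can be too low.

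**Figure D4:**
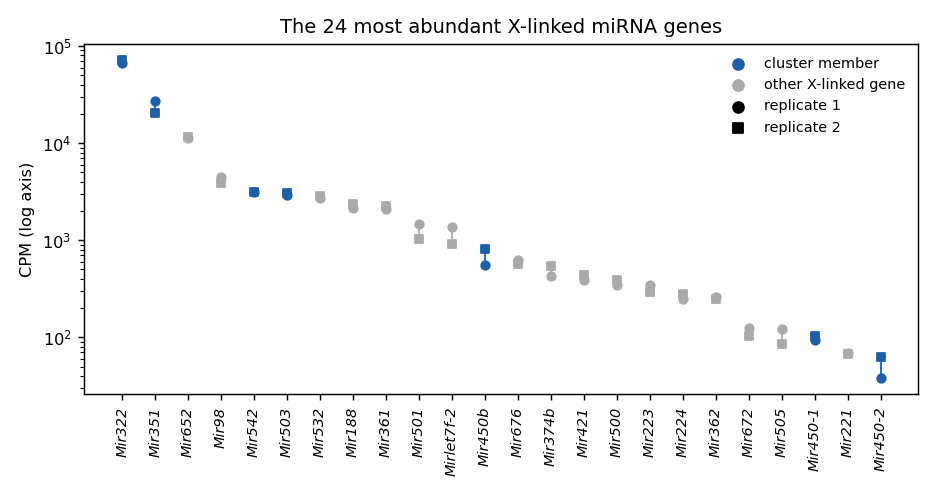
The 24 most abundant X-linked miRNA genes by mean level, in CPM on a log axis, with circles for replicate 1 and squares for replicate 2, cluster members in blue and others in grey. Mir322 and Mir351 are the highest, and Mir652 with 11425 CPM follows.

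Between the libraries the cluster's sum moved little (log2 ratio of replicate 2 to replicate 1, on CPM + 1, -0.02), while its members did not move together. A ratio past 5 to 4 either way was the size used for a call, there being 1 library on each side. By it 2 members were higher in replicate 2 and 1 was lower. Among all 337 detected genes 22.3% were higher and 9.50% lower by that measure. Scaling changed this balance. With TMM factors, which shifted all ratios by -0.065 (log2), 18.1% were higher and 14.8% lower, and with median-of-ratios factors, a shift of -0.11, 15.7% and 19.6%. The calls of members were 2 higher and 1 lower under each.

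The member that was lower was Mir351, with a log2 ratio of -0.42. Its CPM in replicate 1 was 1.34 times that in replicate 2, with a 95% counting interval of 1.33 to 1.35, which holds only for these libraries. Of the 78 genes above 1000 CPM, 8 differed by more, and of the 337 detected genes 77 did. Among the detected genes with its seed, Mir125a was also lower (-0.30), while Mir125b-2 (0.23) and Mir125b-1 (0.10) were higher.

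The members that were higher belong to the Mir450 group. Mir450b had a log2 ratio of 0.53 (1.45 times, counting interval 1.37 to 1.53) and Mir450-2 one of 0.71 (1.65 times, 1.35 to 2.02). Mir450-1, which shares its mature 5p arm with Mir450-2, had a ratio of 0.12 with an interval that included no difference (1.09 times, with a lower bound of 0.945). Larger absolute ratios were seen in 46 of the 337 detected genes for Mir450b and 28 for Mir450-2.

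Mir322 had a log2 ratio of 0.10, Mir503 one of 0.07 and Mir542 one of 0.004, each short of the call. Under median-of-ratios scaling these became -0.01, -0.04 and -0.11, so no direction is given for them. The median log2 ratio was 0.10 over the 7 members and 0.08 over all detected genes, and the median of its absolute size 0.12 and 0.22.

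**Figure D5:**
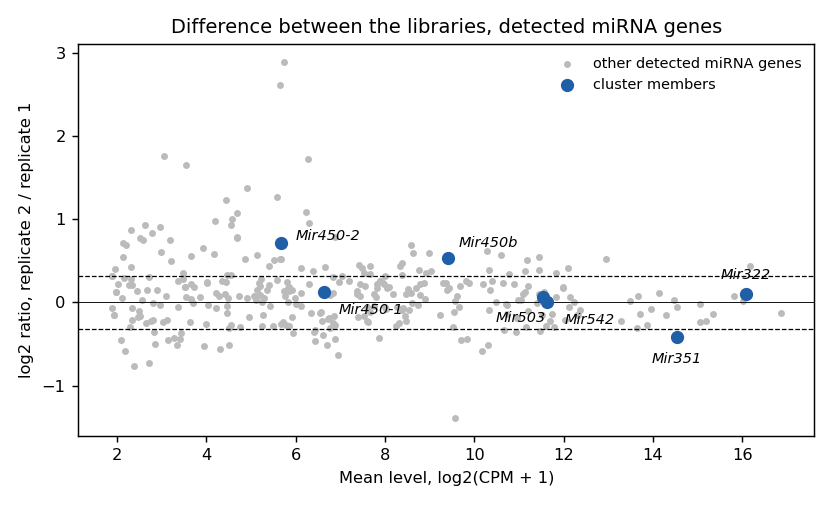
Log2 ratio of replicate 2 to replicate 1 against mean level, log2(CPM + 1), for the 337 detected miRNA genes, with the cluster members in blue and dashed lines at a ratio of 5 to 4 either way. Mir450-2 and Mir450b lie above the upper line, Mir351 lies below the lower one, and the other 4 members lie between the lines.

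In level, the genes outside the cluster nearest to Mir322 by Euclidean distance in log2(CPM + 1) over both libraries were Mir126a of the endothelium (0.09), Mir208b of heart muscle (0.11) and Mir143 of smooth muscle (0.26). Mir322 stood 1.01 times above Mir208b in replicate 1 and 1.08 times in replicate 2. Nearest to Mir351 were Mir21a (0.26), Mir23a (0.32) and Mir23b (0.37). With 2 libraries this measures likeness of level, not of pattern.

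The labelled tissue was checked on marker miRNAs. The heart muscle markers Mir208a, Mir208b and Mir499 were all detected and summed to 75752 CPM in replicate 1 and 79354 in replicate 2. Beside the differences in Mir351 and the Mir450 genes, all 7 epithelial markers were higher in replicate 2, from 667 CPM in sum to 1142, and both red blood cell markers were lower, from 1184 to 489. The smooth muscle markers went from 64494 to 87098 CPM, the white blood cell markers from 479 to 389, those of liver and gut from 468 to 416, and Mir206 of skeletal muscle from 15.7 to 34.1. Mir126a of the endothelium went from 69932 to 75015 CPM, and the mesenchyme markers Mir214 and Mir199a-2 from 3579 to 3755 in sum. Of the 6 measured neuronal markers, 5 had 0 counts (Mir124a-1, Mir124a-2, Mir124a-3, Mir9-2 and Mir9-3) and Mir137 had 57 and 329, or 13.2 and 85.7 CPM (log2 ratio 2.61). The copies of Mir124a share stretches of 31 or 32 bases and Mir9-2 and Mir9-3 one of 26, so their reads can be missing from the gene counts as for Mir450-1 and Mir450-2, and their counts of 0 do not show that these miRNAs were absent. The part of other cell types in the members' levels was not tested. In whole tissue, fewer cells of a type and less RNA per cell cannot be told apart.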

How the data were processed

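The deposited tables hold whole-number read counts per gene for both strands together and for each strand alone, and 4 lines of reads outside genes (47.0% ± 0.191 of all reads, SD, n = 2), which were left out of totals. Per the file headers and descriptions deposited with the tables, the counts refer to build mm10 and GENCODE M4, with 1 table per library. No aligner or counting program is named: it is not given in the sources used here. As whole numbers with unequal totals, the counts were taken as not normalized by the authors.

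The first strand-specific column was used. Names and coordinates came from GENCODE M21, on the assembly of mm10, and covered 1894 of 1973 genes. Sequences came from RefSeq. CPM used the total over genes, and log2 values a pseudocount of 1 CPM. Depth per library was 4327424 and 3839984 assigned reads, so 3 counts equal 0.693 and 0.781 CPM. Intervals are exact binomial intervals (95%) and, like floors, cover counting error only.

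There being 1 group, no test between groups was possible. edgeR 4.0.16 gave TMM factors and the common dispersion, and DESeq2 1.42.0 the median-of-ratios factors (R 4.3.3). Python 3.11.15, pandas 2.3.3 and scipy 1.17.1 did the rest. Alternatives were the unstranded column, other scalings, pseudocounts and count minimums, and each replicate left out. All cluster members were named, with list members by value if detected and the 3 genes nearest in level to Mir322 and to Mir351. Counts of undetected genes in the seed groups and markers, and the neighbouring noncoding genes, were given outside that rule, after the values were seen. The members and lists were chosen with earlier results of these data known.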

Additional observations from a re-analysis of the deposited data

How the results depend on the processing

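The cluster sum of 100170 CPM moved by more than the spread between libraries in 3 settings, each by its own construction of the total: 95513 CPM in the unstranded column, 113793 with the most abundant gene left out of the total and 53050 when all reads were the total. Of 144 recomputed values 118 stayed within a limit, 26 moved, and no call reversed. The limit was the spread between libraries for levels, shares and ratios within a library. For ratios between libraries it was the counting interval, and for counts of genes 1.5 times. Part of the 118 was fixed in advance. With 2 libraries, a value with 1 left out always lies within their spread, and scaling cannot change a ratio within a library. With 1 library left out the cluster sum was 99476 to 100863. Shares and ratios within the cluster or a seed group do not depend on scaling. Leaving out 1 library gave 66.4% to 72.4% for the share of Mir322 in the cluster, 23.1 to 23.6 for Mir322 to Mir503 and 2.46 to 3.55 for Mir322 to Mir351. The reads at Mir497, counted in after the data were seen, moved the mean share of Mir322 and Mir503 to 91.6%. Leaving out 1 library gave 91.9% to 92.5% for Mir322 and Mir503 in their seed group, 82.8% to 85.0% for Mir351 in its own and 77.8% to 78.0% for the cluster among X-linked reads. All 7 members were detected at 1, 5 and 20 counts. The 3 calls between libraries held under each scaling and pseudocount tried, with a range of -0.53 to -0.42 for Mir351, 0.42 to 0.53 for Mir450b and 0.60 to 0.72 for Mir450-2. Mir450-2 is not counted if a mean of 100 CPM is required, which leaves 2. Of all genes, 54.95% of calls were higher in replicate 2 with TMM and 44.5% with median-of-ratios scaling, against 70.1% in CPM. Depth limits the Mir450 genes most, with 164 counts at the lowest. No paired analysis was possible because the series has 1 group.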
